A study of Mus musculus with 4 samples.

Results

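The Gimap genes encode GTPases of immunity-associated proteins, a family of small GTP-binding proteins that share the AIG1-type GTPase domain and are best known from lymphocytes. The rows Gimap1, Gimap3, Gimap4, Gimap5, Gimap6, Gimap7, Gimap8 and Gimap9 were taken by name from tables of mouse hematopoietic stem cells, 8 of the 24411 genes listed. All 8 passed the filter on low counts, as did 12244 genes in all. Gimap proteins bind GTP, assemble on membranes of the endoplasmic reticulum, lysosomes and other compartments, and govern the survival of resting T and B cells. In mice and rats, loss of Gimap5 depletes lymphocytes, and in mice it also impairs blood stem and progenitor cells.

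The Dis3-/- group held stem cells of Dis3fl/fl;Mx-Cre donors and the wild type group those of Dis3fl/fl donors without Cre, both C57BL/6, with 2 libraries each. The series' design text gives 2 mice, and replicates that were preparations rather than mice would make the p-values below a measure of technical spread. Marrow of either donor was transplanted into lethally irradiated CD45.1 mice, and 4 weeks later 300 μg of pIpC was injected on days 0 and 2. This double-stranded RNA mimic raises interferon, which drives the Mx promoter and hence Cre in any interferon-responsive cell, so the deletion was not limited to stem cells. The protocol text is shared by both genotypes, so that wild type mice also received pIpC is read from it. On day 4 lineage-negative, EPCR+, CD150+, CD48- cells were sorted, 100 per library, and sequenced by RamDA-seq. The sort as described names no CD45 allele, so recipient cells that survived irradiation are not separated from donor cells.

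The libraries held 6085367 to 6818535 expected counts. Dis3, the targeted gene, encodes a catalytic subunit of the RNA exosome, which degrades RNA. It stood at 23.6 and 30.2 CPM (counts scaled to library size, with TMM factors) in Dis3-/- libraries, against 55.9 and 53.3 CPM in wild type libraries. The fold change was -1.02 ± 0.14 on the log2 scale (SE; edgeR adjusted p = 2.58e-04). Reads from outside the deleted part may be counted too. Of the sort marker genes, Procr (0.04 ± 0.13, edgeR adjusted p = 0.853), Slamf1 (-0.10 ± 0.21, edgeR adjusted p = 0.787) and Cd48 (-0.57 ± 0.21, edgeR adjusted p = 0.0627) did not pass the test. Cd48 passed once wild type replicate 1 was left out (-0.78, edgeR adjusted p = 0.0208) and on log2(TPM + 1) (limma adjusted p = 0.0253). All fold changes set Dis3-/- over wild type and are log2 values from edgeR's quasi-likelihood test, with p-values adjusted over the 12244 tested genes and a threshold of 0.05.

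The 8 genes lie in a single cluster on mouse chromosome 6 (GRCm38, 48647186 to 48770851), 123.7 kb from end to end. In order they are Gimap8, Gimap9, Gimap4, Gimap6, Gimap7, Gimap1, Gimap5 and Gimap3. Gimap6 and Gimap3 are on the minus strand and the other 6 on the plus strand. The GENCODE M21 annotation places Gimap1os on the strand opposite Gimap1. It also places the protein-coding model Gm28053 across Gimap7, Gimap1 and Gimap5. Reads that fall on shared bases cannot be assigned with certainty, and the sources used here give no strand setting. Neither model is among the 24411 genes listed. The expected counts of Gimap1 and Gimap7, and the sum of those of Gimap3 and Gimap5, were whole numbers in all 4 libraries.

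Gimap3 and Gimap5 are close copies, which bears on every value given for them. Their coding sequences (903 and 924 bases) were identical at 86.8% of aligned positions, and the next closest pair, Gimap7 and Gimap9, at 64.05%. In the annotated transcripts, Gimap3 and Gimap5 were the only 1 of 28 pairs of members that shared a stretch of 50 bases (190 such stretches, 7.52% of those of Gimap3 and 4.53% of those of Gimap5). They still shared 41 stretches of 100 bases (1.655% of those of Gimap3 and 0.966% of those of Gimap5). The lines below show the most alike 240 bases, which lie in the coding part of the last exon of each gene. Capitals mark the positions at which they differ, 3 of 240, and the longest run without a difference in this window is 132 bases. The Gimap5 line is chr6:48752576-48752815 (plus strand) and the Gimap3 line is chr6:48765689-48765928 (minus strand, written 5′ to 3′), both GRCm38 from GENCODE M21 transcripts.
Gimap5: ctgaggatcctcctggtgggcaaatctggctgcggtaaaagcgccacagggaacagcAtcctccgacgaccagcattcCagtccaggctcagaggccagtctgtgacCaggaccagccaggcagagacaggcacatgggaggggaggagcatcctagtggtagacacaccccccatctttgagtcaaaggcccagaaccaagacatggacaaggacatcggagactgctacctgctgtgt
Gimap3: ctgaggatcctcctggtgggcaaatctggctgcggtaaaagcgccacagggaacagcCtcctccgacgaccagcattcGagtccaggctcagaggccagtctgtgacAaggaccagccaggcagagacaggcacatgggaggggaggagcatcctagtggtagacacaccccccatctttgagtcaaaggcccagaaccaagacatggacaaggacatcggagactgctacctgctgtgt

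The Gimap family was expressed in the sorted stem cells at unequal levels, in an order that differed little between genotypes. Levels per length are given as the authors' TPM. Gimap6, whose product takes part in autophagy, was the highest in every library, with 278 and 266 TPM in Dis3-/- libraries and 293 and 300.01 TPM in wild type libraries. It made up 49.79% and 49.99% of the summed Gimap TPM in Dis3-/- libraries and 50.97% and 49.97% in wild type libraries. Gimap1, needed by mature T and B cells in mice, came next with 124.4 and 124.2 TPM in Dis3-/- libraries and 120.2 and 132 TPM in wild type libraries. The range of each of the first 4 genes in the order (Gimap6, Gimap1, Gimap5 and Gimap8) lay wholly above the range of the next. Gimap4 and Gimap9 overlapped each other at 15.1 to 25.9 TPM, and so did Gimap3 and Gimap7 at 5.39 to 14.7 TPM, so their places within each pair are not set. The summed TPM of all 8 was 559 and 533 in Dis3-/- libraries and 576 and 600.4 in wild type libraries; the summed CPM was 417 and 388 in Dis3-/- libraries and 396 and 422 in wild type libraries, which overlap. In TPM the sums did not overlap, on a scale where the median of all tested genes was itself lower in Dis3-/- cells (-0.107).

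**Figure D1:**
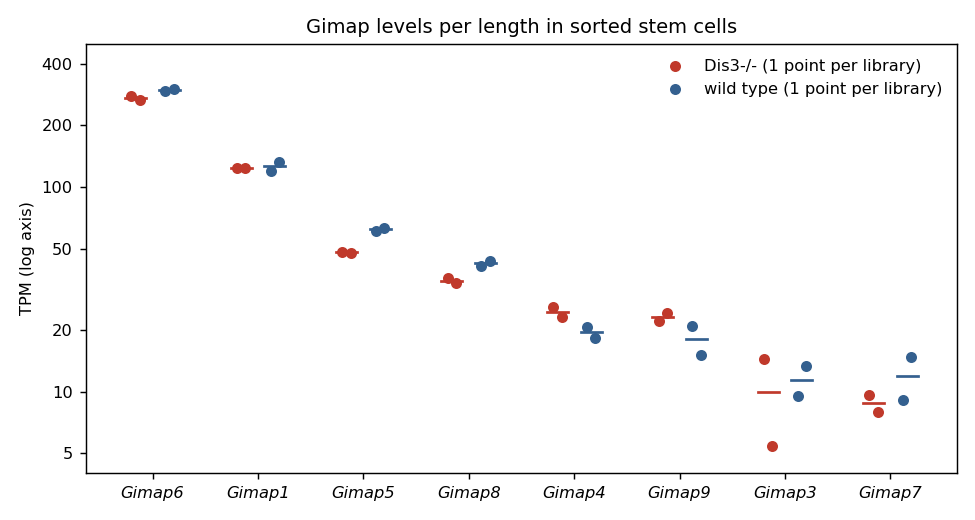
TPM (log axis) of each Gimap gene in the 4 libraries, with Dis3-/- left of wild type, 1 point per library and a bar at each mean. Gimap6 lies above 266 TPM in every library, while Gimap3 and Gimap7 stay under 15 TPM.

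None of the 8 Gimap genes passed the test between genotypes. By edgeR 0 of 8 were called, against 23.0% of all tested genes (12.7% higher and 10.2% lower in Dis3-/- cells). At an unadjusted p under 0.05 the count was also 0 of 8, against 35.6% of tested genes, and DESeq2 and limma-voom called 0 as well. That unadjusted count was 1 with RLE size factors, with library totals only, without wild type replicate 1 and without Dis3-/- replicate 1, and 2 in each limma fit on TPM. A total of 3 members had a log2 fold change above 0 and 5 below 0. Their median was -0.05, beside -0.003 over all tested genes, and the median size without sign was 0.21, beside 0.26. CPM did not overlap between genotypes for 4 of 8 members, against 62.4% of tested genes. Over all tested genes 1561 were higher and 1250 lower (55.5% higher). On log2(TPM + 1) limma called 1076 higher and 1480 lower (42.1% higher), and the median of all tested genes was shifted to -0.107 on that scale.

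The abundant members gave narrow intervals. Gimap6 had 191 and 178 CPM in Dis3-/- libraries, against 183 and 190.1 CPM in wild type libraries. The wild type values lay between the Dis3-/- ones, and the log2 fold change stood at -0.01 ± 0.08 (SE; edgeR adjusted p = 0.921). Its 95% interval ran from -0.19 to 0.16, or 0.877-fold to 1.12-fold. Gimap1 had 79.3 and 76.9 CPM in Dis3-/- libraries, against 69.4 and 77.7 CPM in wild type libraries. Only wild type replicate 1 stood below the rest, and the log2 fold change stood at 0.09 ± 0.10 (edgeR adjusted p = 0.586; 95% interval -0.13 to 0.31). On log2(TPM + 1) the Gimap1 value was -0.02, or 0.09 relative to the shifted median of all tested genes on that scale. The edgeR interval of Gimap1 includes 0, so its direction is not set. Gimap8, which encodes the longest member, had 58.7 and 54.1 CPM in Dis3-/- libraries, against 60.9 and 65.9 CPM in wild type libraries. Both Dis3-/- values lay under both wild type values, by less than the test requires (-0.17 ± 0.11, edgeR adjusted p = 0.310; 95% interval -0.41 to 0.07).

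Gimap5, the member whose loss harms lymphocytes and blood stem cells, came nearest to the threshold. It had 40.6 and 39.03 CPM in Dis3-/- libraries, against 46.5 and 48.8 CPM in wild type libraries. The genotypes did not overlap, and the log2 fold change stood at -0.26 ± 0.12 (SE; unadjusted p = 0.0539, edgeR adjusted p = 0.148). The 95% interval ran from 0.694-fold to 1.004-fold. On log2(TPM + 1), Gimap5 passed: it averaged 47.9 ± 0.410 TPM in Dis3-/- and 62.0 ± 1.37 TPM in wild type libraries (SD, n = 2 each; difference -0.36, limma adjusted p = 0.0321). It passed with a pseudocount of 0.1 too (limma adjusted p = 0.0326). It did not pass when all genes above 0 entered the fit on log2(TPM + 1) (limma adjusted p = 0.0588). Relative to the shifted median of all tested genes on that scale the difference was -0.26. Gimap5 was thus called in TPM and not in counts.

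Gimap3's share of the counts of the pair with its copy Gimap5 moved more than the pair's sum did. The expected counts of 6 members were whole numbers in all 4 libraries (tolerance 0), while those of Gimap3 and Gimap5 were fractional in all 4. Added together, Gimap3 and Gimap5 came to whole numbers in all 4 libraries (tolerance 0.005), with 322 and 281 counts in Dis3-/- libraries and 379 and 380 counts in wild type libraries. Gimap5 was assigned 241.3 and 249.59 of these in Dis3-/- libraries, against 323.05 and 307.6 in wild type libraries. Gimap3 was assigned 80.7 and 31.41 of these in Dis3-/- libraries, against 55.95 and 72.4 in wild type libraries. Its share was thus 25.1% (95% Wilson interval 20.6% to 30.1%) in Dis3-/- replicate 1 and 11.2% (8.01% to 15.4%) in Dis3-/- replicate 2. It was 14.8% (11.5% to 18.7%) in wild type replicate 1 and 19.1% (15.4% to 23.3%) in wild type replicate 2. The wild type shares lay between the Dis3-/- ones. These intervals cover counting error only, and the error of dividing shared reads comes on top.

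**Figure D2:**
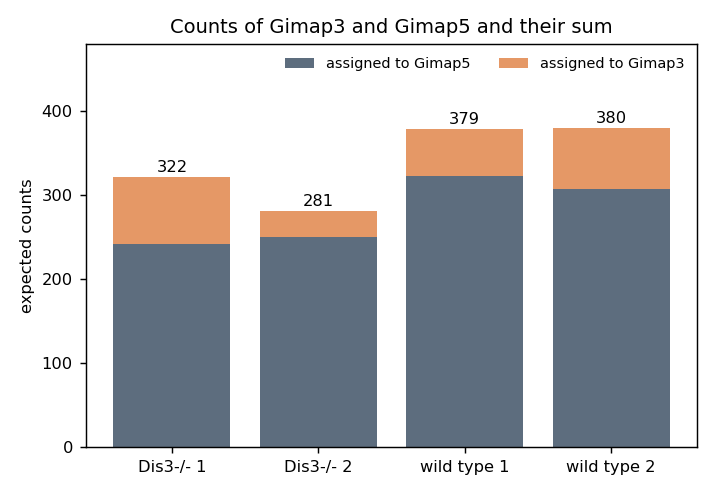
Expected counts assigned to Gimap5 (grey) and Gimap3 (orange) in each library, stacked, with their sum above each bar. The sums are 322 and 281 in Dis3-/- and 379 and 380 in wild type libraries, and the orange part is largest and smallest in the 2 Dis3-/- libraries.

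Gimap3, tied in mice to the sorting of mitochondrial DNA in blood cells, had no set direction. It had 13.6 and 4.91 CPM in Dis3-/- libraries, against 8.06 and 11.5 CPM in wild type libraries. Its log2 fold change stood at -0.08 ± 0.38 (SE; edgeR adjusted p = 0.904). The wild type values again lay between the Dis3-/- ones. The fold change became -0.998 without Dis3-/- replicate 1 and 0.49 without Dis3-/- replicate 2, neither past the threshold. With both genes summed, a choice made after the values were seen, the pair stood at 54.2 and 43.9 CPM in Dis3-/- libraries, against 54.6 and 60.3 CPM in wild type libraries. The log2 fold change of the sum was -0.23 ± 0.13 (edgeR adjusted p = 0.226; 95% interval -0.51 to 0.05). It was -0.08 without Dis3-/- replicate 2 and -0.38 without Dis3-/- replicate 1.

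Gimap4 and Gimap9, neighbours in the cluster, had the highest fold changes of the family, neither of which passed. Gimap4, whose product speeds the death of mouse T cells, had 15.99 and 17.04 CPM in Dis3-/- libraries, against 13.0 and 13.2 CPM in wild type libraries (0.34 ± 0.20, edgeR adjusted p = 0.247). Gimap9 had 12.8 and 13.6 CPM in Dis3-/- libraries, against 10.9 and 8.10 CPM in wild type libraries (0.47 ± 0.24, edgeR adjusted p = 0.189). In both genes the genotypes did not overlap. The 95% intervals reached 1.70-fold for Gimap4 and 1.98-fold for Gimap9, and differences within these intervals cannot be told from none with 2 libraries per genotype. Leaving out wild type replicate 1 gave 0.71 for Gimap9, and leaving out wild type replicate 2 gave 0.27. Gimap7, whose human protein stimulates GTP hydrolysis by its relatives, had the fewest counts of the family, 30 and 26 counts in Dis3-/- libraries and 30 and 45 in wild type libraries. Its value rested on wild type replicate 2 (-0.33 ± 0.39, edgeR adjusted p = 0.592; 0.07 without that library), and its 95% interval ran from 0.446-fold to 1.43-fold, the widest of the 8 on the log2 scale.

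**Figure D3:**
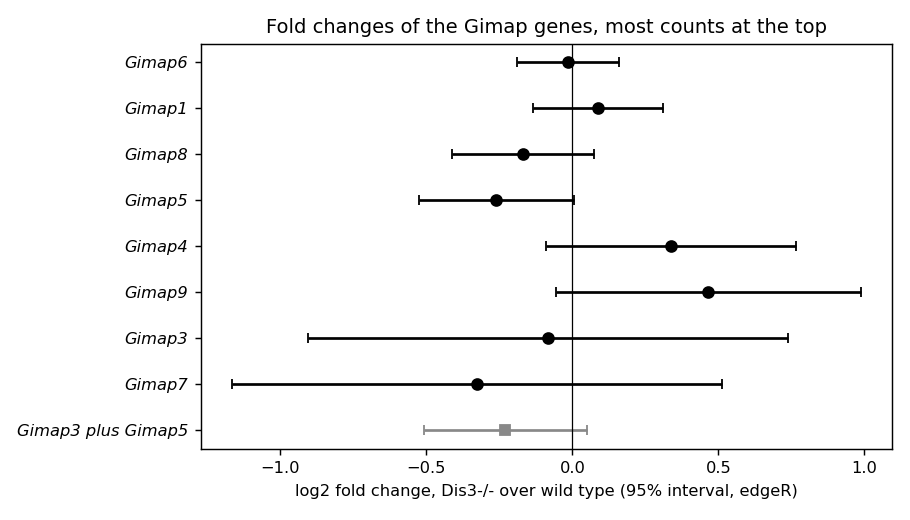
Log2 fold change of each Gimap gene, Dis3-/- over wild type, with its 95% interval from edgeR, ordered by total count from the top; the grey square is the sum of Gimap3 and Gimap5. Every interval includes 0, and the intervals widen from Gimap6 (-0.19 to 0.16) to Gimap7 (-1.16 to 0.51).

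Genes beside the cluster were mostly not called either. Of 17 listed flanking genes 15 were in the tables used and 10 were tested, and 1 of the 10 was called, lower in Dis3-/- cells (background 10.2%). This was Zfp467, a zinc finger gene 201 kb upstream of Gimap8, with 29.1 and 24.2 CPM in Dis3-/- libraries, against 40.1 and 45.7 CPM in wild type libraries (-0.69 ± 0.15, edgeR adjusted p = 4.71e-03). The nearer flank did not pass: AI854703 (-0.53 ± 0.33), Zfp775 (0.13 ± 0.30), Repin1 (0.10 ± 0.11), Lrrc61 (0.12 ± 0.33) and Sspo (-0.30 ± 0.34) had edgeR adjusted p-values of 0.280 to 0.835. On the other side lie the membrane protein genes Tmem176a and Tmem176b. Tmem176a had 134.3 and 133.8 CPM in Dis3-/- libraries, against 116 and 127 CPM in wild type libraries (0.14 ± 0.09, edgeR adjusted p = 0.265). Tmem176b had 310.4 and 309 CPM in Dis3-/- libraries, against 325 and 315 CPM in wild type libraries (-0.05 ± 0.07, edgeR adjusted p = 0.688). These genes overlap on opposite strands. The farthest tested genes, Malsu1 (0.32 ± 0.35) and Igf2bp3 (-0.78 ± 0.31, edgeR adjusted p = 0.0833), overlap as well and were not called.

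**Figure D4:**
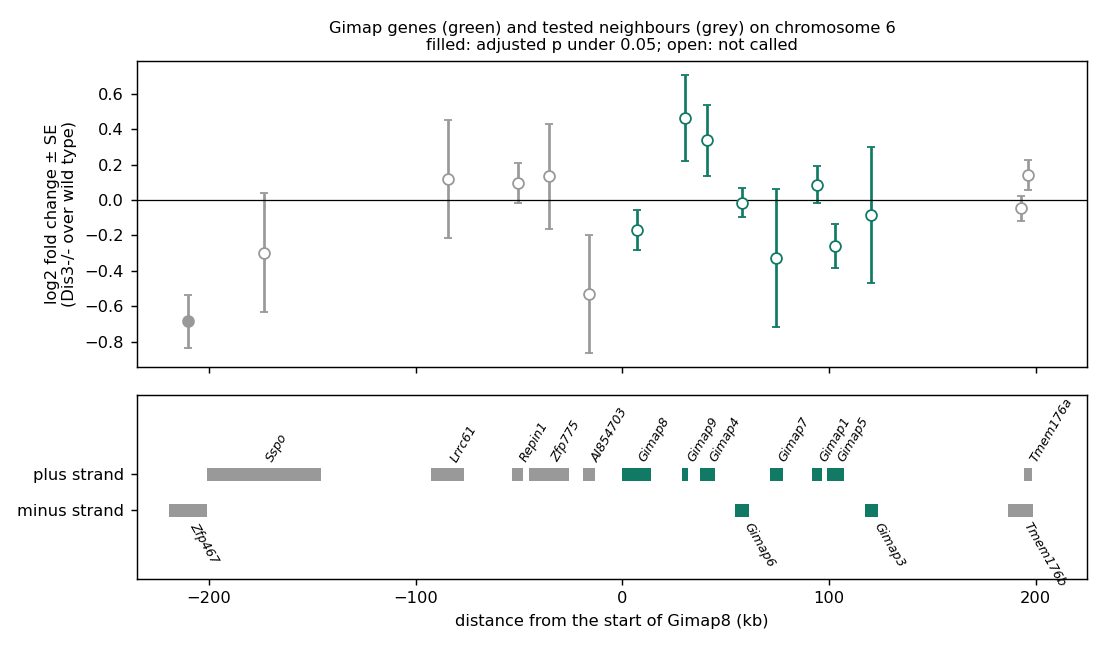
Top, log2 fold change (± SE) of Gimap genes (green) and tested neighbours within about 230 kb (grey); bottom, their extents by strand, both against distance from the start of Gimap8 in kb. All Gimap points are open (not called), and Zfp467 at the far left (-0.69) is the only filled one.

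Windows from 250 bases before to 50 after the annotated start were taken from RefSeq (GRCm38.p6) for all 8 members, 9 windows in all. AGGAAG, a form of the Ets core searched on both strands like the others, stood in 7 of the 9 windows, from 7 of 8 members (every one but Gimap6). Of all 32851 windows 35.4% hold it. Other forms of the Ets core were not searched, so Gimap6 is not shown to lack them. The Runx core TGTGGT stood in 3 (Gimap1, Gimap4 and Gimap7, with 16.8% of all windows) and the TATA box letters TATAAA in Gimap6 alone (13.6%). The Gata core AGATAA (11.2% of all) was in none of the 9 windows. The 250 bases upstream of Gimap6 and Gimap7 are shown because these genes have the highest and the lowest mean TPM of the family. The Gimap6 window is chr6:48708245-48708494 (minus strand) and the Gimap7 window is chr6:48718371-48718620 (plus strand). In Gimap6 capitals mark the letters TATAAA on the reverse strand, near the end of the stretch that is far from the annotated start. In Gimap7 they mark the Ets core and then the Runx core (reverse strand), which do not overlap. A match is a run of letters, not a shown site.
Gimap6: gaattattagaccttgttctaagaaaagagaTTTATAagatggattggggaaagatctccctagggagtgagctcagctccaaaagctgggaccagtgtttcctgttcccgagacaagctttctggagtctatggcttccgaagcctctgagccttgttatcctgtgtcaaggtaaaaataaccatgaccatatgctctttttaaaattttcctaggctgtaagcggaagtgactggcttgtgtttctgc
Gimap7: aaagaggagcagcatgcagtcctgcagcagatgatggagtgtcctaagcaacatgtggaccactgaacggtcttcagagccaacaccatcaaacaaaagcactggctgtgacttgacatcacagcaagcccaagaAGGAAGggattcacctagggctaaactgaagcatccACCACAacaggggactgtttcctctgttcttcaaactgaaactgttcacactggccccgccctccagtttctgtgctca

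The genes most like Gimap6 in profile were picked for that likeness, and their distances are a description. Among 9428 genes averaging 10 CPM or more, Bag4, Cdk11b, Rgs3 and Tmem60 were among the 5 whose log2 CPM profile over the 4 libraries was nearest to that of Gimap6, with root mean square distances of 0.00683 to 0.00805 after centring. The members were not picked so and were not held to 10 CPM, which Gimap3 and Gimap7 did not reach on average in either genotype. Of the members, the nearest was Gimap1 (0.0673), then Gimap8 (0.0789) and Gimap5 (0.122), and Gimap3 was the farthest (0.500). How many other genes lay as near as these members was not counted.

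Genes that work with Gimap proteins, or are built like them, were set beside the family. The counts of the 4 lists that follow lie on either side of the background of 23.0% of tested genes called (12.7% higher and 10.2% lower), so they are given as values and not as a result about these lists. Mouse Gimap3 and Gimap5 bind Bcl2 family proteins, which control mitochondrial cell death. Of 13 tested Bcl2 family genes 2 rose and 1 fell (median 0.03). The death effector gene Bax had 42.2 and 46.3 CPM in Dis3-/- libraries, against 24.2 and 20.01 CPM in wild type libraries (0.999 ± 0.15, edgeR adjusted p = 4.04e-04). Bok rose (1.40 ± 0.43, edgeR adjusted p = 0.0325) and Bcl2l11, which encodes the death trigger Bim, fell (-0.51 ± 0.15, edgeR adjusted p = 0.0207). Bok was not called when wild type replicate 1 was left out (1.03, edgeR adjusted p = 0.183), nor when Dis3-/- replicate 1 was (1.04, edgeR adjusted p = 0.259). Bcl2l11 was not called when Dis3-/- replicate 2 was left out (-0.28, edgeR adjusted p = 0.178); DESeq2 called neither. The survival genes Bcl2 (-0.14 ± 0.10, edgeR adjusted p = 0.333) and Mcl1 (-0.09 ± 0.08, edgeR adjusted p = 0.455), named after their values were seen, did not pass.

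Gimap6 protein binds Gabarapl2, one of the Atg8 proteins that coat autophagosomes. Of 16 tested genes of Atg8 proteins and their conjugation 2 fell and 0 rose (median -0.22). An unadjusted p under 0.05 was found for 4 of the 16, against 35.6% of tested genes. The Atg8 gene Map1lc3b had 179.9 and 183 CPM in Dis3-/- libraries, against 217 and 226 CPM in wild type libraries (-0.29 ± 0.08, edgeR adjusted p = 0.0165). Leaving out wild type replicate 2 ended this call (-0.26, edgeR adjusted p = 0.0777). Atg12 fell (-0.35 ± 0.11, edgeR adjusted p = 0.0393), a call that leaving out any single library ended (-0.39 to -0.31, edgeR adjusted p = 0.0679 to 0.147), as did DESeq2 and a fit with the replicate number as a block (edgeR adjusted p = 0.0554). Gabarapl1 (-0.24 ± 0.09, edgeR adjusted p = 0.0642) and Gabarapl2 (-0.30 ± 0.14, edgeR adjusted p = 0.142), the second named after its values were seen, did not pass; both passed on log2(TPM + 1) (limma adjusted p = 0.0147 and 0.0348).

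The GTPase domain of Gimap proteins resembles that of septins, which form filaments. Of 11 tested septin genes 2 rose and 0 fell (median 0.23). Sept11 had 212 and 197 CPM in Dis3-/- libraries, against 163 and 144 CPM in wild type libraries (0.41 ± 0.09, edgeR adjusted p = 4.01e-03; not called on TPM). Sept3, at or under 3.3 CPM, was called too (edgeR adjusted p = 0.0421), but not once any single library was left out (1.47 to 3.08, edgeR adjusted p = 0.0603 to 0.271), nor with the replicate block (edgeR adjusted p = 0.0671). Of 18 interferon-induced GTPase genes, another immune GTPase group, 4 fell and 1 rose (median -0.01). Gbp8 fell (-0.73 ± 0.18, edgeR adjusted p = 9.08e-03), as did Gbp6 (-0.60 ± 0.16, edgeR adjusted p = 0.0135), and both calls ended without wild type replicate 1 (-0.49 and -0.36, edgeR adjusted p = 0.112 and 0.180). Ifi47 rose (0.36 ± 0.10, edgeR adjusted p = 0.0209), a call lost when wild type replicate 2 (0.27, edgeR adjusted p = 0.110) was left out, and likewise for Dis3-/- replicate 1 (0.23, edgeR adjusted p = 0.136). The summed level of this list was 1318 and 1656 CPM in Dis3-/- libraries and 1824 and 1159 CPM in wild type libraries, so the Dis3-/- sums lay between the wild type ones.

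**Figure D5:**
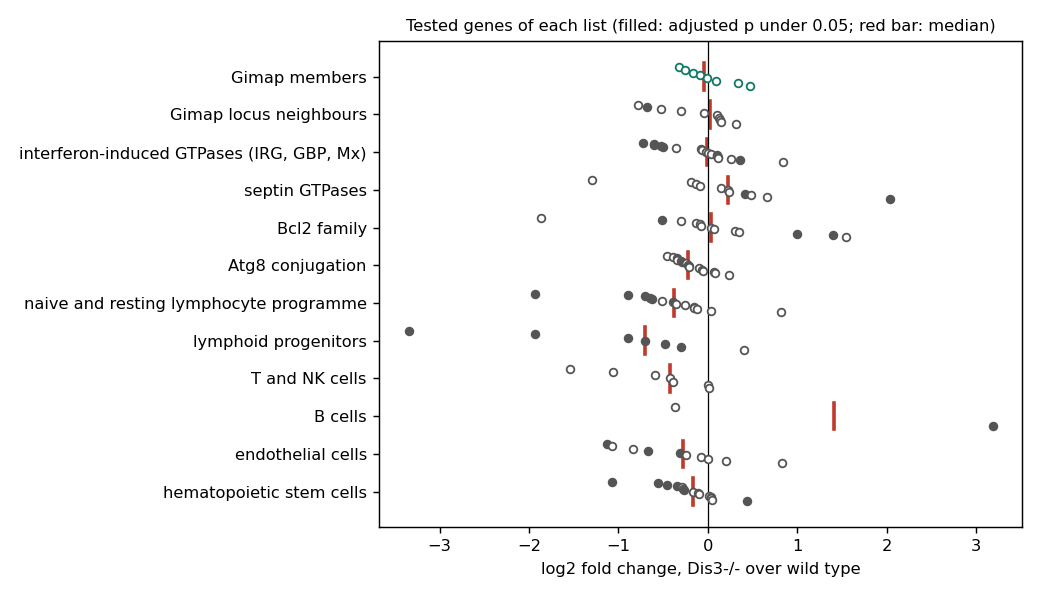
Log2 fold change (Dis3-/- over wild type) of every tested gene of 12 lists, 1 point per gene, filled where edgeR's adjusted p is under 0.05, with a red bar at each median. The Gimap row holds open points only, between -0.33 and 0.47, while the lymphoid progenitor row lies mostly to the left of 0 with a median of -0.71.

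Gimap genes are active in lymphocytes and in endothelium, so marker genes of those cells were set beside them. In bulk libraries, fewer cells of a type and less RNA per cell cannot be told apart. Over all tested genes edgeR called 23.0% (12.7% higher and 10.2% lower), the share to set beside each count below. Of 7 tested lymphoid progenitor genes 6 fell and 0 rose (median -0.71), and the list of 13 summed to 346 and 344 CPM in Dis3-/- libraries, against 497 and 552 CPM in wild type libraries. Examples were the chromatin organiser gene Satb1 (-1.93 ± 0.20, edgeR adjusted p = 2.79e-05) and the receptor gene Flt3 (-0.89 ± 0.13, edgeR adjusted p = 3.14e-04); Il7r, Rag1 and Ly6d had 0 counts in all libraries. A list of genes of resting lymphocytes, which holds Satb1 too, showed 6 of 14 lower and 0 higher (median -0.38), with Runx1, a blood transcription factor gene, at -0.62 ± 0.08 (edgeR adjusted p = 8.25e-05). Of 10 tested endothelial genes 3 fell and 0 rose (median -0.28): the guidance receptor gene Robo4 (-1.13 ± 0.16, edgeR adjusted p = 2.65e-04), the adhesion gene Pecam1 (-0.67 ± 0.10, edgeR adjusted p = 3.78e-04) and the co-receptor gene Eng (-0.32 ± 0.08, edgeR adjusted p = 0.0113). Leaving out wild type replicate 1 ended the Eng call (-0.31, edgeR adjusted p = 0.0532), and so did leaving out Dis3-/- replicate 1 (-0.24, edgeR adjusted p = 0.0690). This list of 15, several of which stem cells also express, summed to 656 and 717 CPM in Dis3-/- libraries and 818 and 834 CPM in wild type libraries.

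Markers of mature T, NK and B cells were present in part. The shares over all tested genes were 23.0% called by edgeR and 35.6% with an unadjusted p under 0.05. Of the 19 listed T and NK cell genes that the tables hold, 7 had 0 counts in every library (Cd3e, Cd3g, Zap70, Cd2, Cd8b1, Ncr1 and Gzma), 7 were tested and 0 were called by edgeR, with 2 at an unadjusted p under 0.05, Klrb1c (-1.54 ± 0.61, edgeR adjusted p = 0.0852) and Lat (-0.42 ± 0.18, edgeR adjusted p = 0.118; called on log2(TPM + 1), limma adjusted p = 0.0201). The list summed to 118 and 99.8 CPM in Dis3-/- libraries and 104 and 131 CPM in wild type libraries, most of it from the granule gene Nkg7 (81.6 and 64.1 CPM in Dis3-/- libraries, 60.5 and 85.0 CPM in wild type libraries). The kinase gene Lck also had 76 and 93 counts in Dis3-/- libraries and 85 and 94 counts in wild type libraries. Of 13 B cell genes 4 had 0 counts in every library (Ms4a1, Ebf1, Blk and Igll1), and the list summed to 23.4 and 29.6 CPM in Dis3-/- libraries and 17.3 and 19.1 CPM in wild type libraries. Of its 2 tested genes the complement receptor gene Cr2 rose (3.19 ± 0.43, edgeR adjusted p = 1.67e-04). Cr2 had 8.92 and 14.7 CPM in Dis3-/- libraries against 1.58 and 0.953 CPM in wild type libraries, which are part of those sums. The gap in Cr2 exceeds the gap in the sums, so the rest of the list summed lower in Dis3-/- libraries. The other tested B cell gene, Cd79b, encodes a B cell receptor subunit and did not pass (-0.37 ± 0.21, edgeR adjusted p = 0.230). Cd79b had 11.1 and 12.4 CPM in Dis3-/- libraries, against 14.4 and 16.04 CPM in wild type libraries. The part of other cells in the Gimap values was not tested.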

How the data were processed

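Per the submitters' processing notes, the tools were Trim Galore 0.6.6, STAR 2.7.8a and RSEM 1.3.3 and the build mm10. The sources used here give neither their roles nor the annotation or strand setting. The authors deposited expected counts per gene, not normalized, for 24411 genes (92.3% to 92.6% of values whole, tolerance 0). A second table deposited by the authors holds TPM, scaled by length to a common total. Expected counts were rounded and tested with edgeR 4.0.16 (R 4.3.3): filterByExpr by genotype (minimum count 10, minimum total 15), TMM, glmQLFit and glmQLFTest (2-sided), adjusted after Benjamini and Hochberg over 12244 genes. Each SE is the absolute log2 fold change divided by the square root of F, and 95% intervals use the t distribution. The procedure was tested on simulated data. CPM use TMM-scaled library sizes, on which 3 counts equal 0.432 to 0.505 CPM. DESeq2 1.42.0, limma 3.58.1 (voom, and log2 of TPM plus 1 or 0.1), other scaling, filters, a replicate block and leaving out each library were alternatives. Coordinates come from RefSeq GRCm38.p6, transcripts and strands from GENCODE M21 on that assembly, and alignments from Biopython 1.88. Amino acid sequences were not used here, so coding sequences stand in for them.

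The members and the 13 gene lists were chosen with earlier results of these data known. The rule for named genes took the 8 members, Dis3, Procr, Slamf1 and Cd48, every tested locus neighbour, up to 3 genes per list with the smallest p, and the 5 genes averaging 10 CPM or more nearest to the most abundant member. Genes outside it are marked or given as levels only, and some genes that the rule took are not reported here.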

Additional observations from a re-analysis of the deposited data

How the results depend on the processing

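Each Gimap log2 fold change was recomputed under 15 alternatives, and the summed pair under 14. Gimap4, Gimap5, Gimap8, Gimap9 and the summed pair had the same direction under every one. The count of called members was 0 under every alternative except limma on log2(TPM + 1) and on log2(TPM + 0.1) of filtered genes, where it was 1 (Gimap5). Gimap1 was -0.0208 with a pseudocount of 1, with or without the filter, and -0.0209 with 0.1. Without single libraries, Gimap3 ranged from -0.998 to 0.49, Gimap6 from -0.063 to 0.039 and Gimap7 from -0.65 to 0.071. After subtracting the median of genes of like length, Gimap1 was -0.03. Genes called higher and lower numbered 918 and 653 with DESeq2, and 479 and 471 with limma on log2(TPM + 1) of all genes above 0, which also ended the calls of Zfp467, Gbp8, Gbp6, Ifi47, Usp18, Stat2, Bcl2l11, Bok, Atg12, Sept11, Sept3, Eng, Ptprc and Cpa3. Without single libraries they ranged from 1226 to 1319 and from 886 to 1060. On log2(TPM + 1) and log2(TPM + 0.1), Procr was -0.0689 and -0.0699, Repin1 -0.0060 and -0.0061, and Lrrc61 -0.0650 and -0.0773; without the filter, values with a pseudocount of 1 were as with it. Without single libraries, Procr ranged from -0.059 to 0.14, Slamf1 from -0.40 to 0.29, Sspo from -0.87 to 0.10, Mcl1 from -0.22 to 0.034 and Lrrc61 from -0.018 to 0.25. The median of all tested genes was -0.107 on log2(TPM + 1) and -0.112 on log2(TPM + 0.1). The cause of the shifts listed here was not tested. The labels number replicates 1 and 2 in each genotype. Replicate deviations correlated at -0.028 over genes, so no shared shift of same-numbered libraries was seen. With 2 libraries per genotype this cannot show whether those libraries were handled as pairs. With the replicate block edgeR called 1463 higher and 1151 lower, and 0 members. The calls of Atg12 (-0.35, edgeR adjusted p = 0.0554), Sept3 (2.05, edgeR adjusted p = 0.0671) and Cpa3 (-1.46, edgeR adjusted p = 0.0581) ended in that fit. Gimap7, Gimap3, Gimap9 and Gimap4 had the fewest counts (131 to 377 over the 4 libraries) and the largest SEs (0.20 to 0.39); the parts of depth, replicate spread and read sharing in these were not tested.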

Other observations

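Some stem cell marker genes were lower in Dis3-/- cells. Over all tested genes edgeR called 23.0% (12.7% higher and 10.2% lower), the share to set beside each count below. Of 15 tested stem cell genes 5 fell and 1 rose (median -0.17). The 1 that rose was Ly6a (0.43 ± 0.13, edgeR adjusted p = 0.0255), named after its values were seen and not given under the alternatives. Kit, the stem cell factor receptor gene, had 716 and 699 CPM in Dis3-/- libraries, against 1078 and 1004 CPM in wild type libraries (-0.56 ± 0.06, edgeR adjusted p = 4.47e-05). Of 5 tested genes listed for blood cells outside the sort gate 3 fell and 0 rose (median -0.57). They were the integrin gene Itgam (-1.39 ± 0.19, edgeR adjusted p = 2.14e-04), the mast cell protease gene Cpa3 (-1.47 ± 0.47, edgeR adjusted p = 0.0366) and Ptprc (-0.38 ± 0.08, edgeR adjusted p = 5.44e-03), which encodes CD45 and is expressed by stem cells too. Ptprc made up most of the list's CPM, and was not called once wild type replicate 1 was left out (-0.28, edgeR adjusted p = 0.0758). Cpa3 was called under only 6 of 14 alternatives; without wild type replicate 2 it stood at -0.88 (edgeR adjusted p = 0.309), and without Dis3-/- replicate 2 at -0.87 (edgeR adjusted p = 0.201). Of 22 interferon-stimulated genes 4 rose and 2 fell (median 0.16). This lies near the 23.0% of all tested genes called, so it is given as values and not as a result about interferon. Usp18, which curbs interferon signalling, had 23.7 and 26.4 CPM in Dis3-/- libraries, against 14.3 and 13.8 CPM in wild type libraries (0.84 ± 0.18, edgeR adjusted p = 4.44e-03). Stat2, which relays the interferon signal, had 29.6 and 35.2 CPM in Dis3-/- libraries, against 57.2 and 44.3 CPM in wild type libraries (-0.65 ± 0.15, edgeR adjusted p = 7.72e-03); leaving out wild type replicate 1 ended this call (-0.45, edgeR adjusted p = 0.0843).

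The length implied by count over TPM varied by at most 1.0039-fold across libraries for 7 of 8 members. For Gimap4 it varied 1.26-fold, at 0.867 and 1.06 of its own mean in Dis3-/- libraries and 0.974 and 1.10 in wild type libraries. The genotypes overlapped.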
